A study of Triticum aestivum and Zea mays with 29 samples.

Results

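TS60-D is the copy of the wheat target TS60 on chromosome 5D, in the gene TraesCS5D02G380900, and it differs from the crRNA at the 3 spacer bases farthest from the PAM. Its data are every adenine column of that site in the deposited tables of regenerated wheat plants and of their progeny, which are 5 of 27 adenine columns in each table, and its amplicon in 4 protoplast libraries, 1 of 18 amplicons there. Immature embryos of the bread wheat cultivar Fielder were co-bombarded with an adenine base editor (ABE) plasmid, crRNA plasmids for TS60 and for a target called TS112, and a marker plasmid carrying eGFP and the herbicide resistance gene BAR. The regenerated plants (T0) number 184 for architecture v11h, which is plasmid CG434 with the deaminase TadA9, and 163 for architecture v9h, which is plasmid CG392 with TadA8e. Both architectures share a catalytically inactive LbCas12a driven by the maize ubiquitin promoter, bipartite nuclear localization signals and the crRNA system h, in which a tRNA and direct repeats flank the spacer behind a wheat U3 promoter. The study found a more active LbCas12a variant in the iteration before it tested TadA9, and carried its best candidates forward. Selfing gave 24 T1 lines with 94 plants, chosen by the study for lack of the transgenes. Leaf DNA was amplified at each homeolog and sequenced, although the labels of these libraries call the material protoplasts.

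Cas12a is guided by a crRNA to a target that follows a T-rich PAM, and it reads the target from the PAM side. Mismatches near the PAM are known to impair Cas12a more than mismatches at the far end. In an ABE the deaminase converts adenines of the displaced DNA strand to inosine, which is read as G, within a window of the spacer. Bread wheat is hexaploid, so most genes exist as homeologs on the A, B and D subgenomes, and each homeolog has a pair of alleles in a plant.

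The spacers of the 3 homeologs are shown first because the mismatches define the site. They are written 5′ to 3′ from the PAM-adjacent base, counted as position 1, with bases that differ from the crRNA in capitals. The PAM is tttc in all of them.
TS60-D: tctcctacaaagctagagtaAGG
TS60-B: tctcctacaaagctagagtaAca
TS60-A: tctcctacaaagctagagtatca
TS60-A is identical to the crRNA. TS60-B carries T21A, and TS60-D carries T21A, C22G and A23G, where the crRNA base stands before the position and the base of the site after it. The D sequence again, now with the 5 adenines that the tables list in capitals, is tctcctAcAAAgctAgagtaagg. These are A7, A9, A10, A11 and A15, and they are present at the same positions of TS60-A and TS60-B. The base before the adenine is T at A7 and A15, C at A9, and A at A10 and A11. The tables do not list the adenines at positions 17, 20 and 21. From spacer position 15 onward the 3 copies read as follows, and the windows show what lies behind the D mismatches.
TS60-D: agagtaagggtaagccatgctacgagtttc
TS60-B: agagtaacagttagggtaagccatgctacc
TS60-A: agagtatcagttagggtaagctatgctagg
The D amplicon lacks a run of 6 bases present in the other amplicons, placed here directly after position 20, the last spacer base that all 3 copies share. Against TS60-A this was the only placement that fitted, and against TS60-B it was 1 of 2. The D amplicon is 201 bases long, against 207 for TS60-B and 207 for TS60-A. With that run left out, TS60-D differs from TS60-B at 2 other positions of the amplicon and from TS60-A at 3. The position of the site within its gene, exonic or intronic, was not analysed here.

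A plant counted as edited at an adenine when at least 25% of its reads showed A-to-G there, as heterozygous up to 70% and as homozygous above 70%, the limits of the study. All 5056 TS60 class calls in the T0 table equalled the calls from its percents. Values were present for 183 v11h plants, and for 154 or 155 v9h plants depending on the adenine. The number of reads behind a plant's percent is unknown, so intervals cover the sampling of plants only. The table names the plasmid of each row but not its library. Its wells form 2 runs per architecture, of 92 and 92 rows for v11h and of 71 and 92 rows for v9h, and these runs served as the batches. The architectures come from different plant name series, so architecture and series cannot be told apart. In v9h, 2 plant names stand on 4 rows. The study describes the regenerated plants as independent, the table does not name their embryos, and p-values measure the spread between rows.

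A9 was the most edited adenine of TS60-D in both architectures. At A9, 74 of 183 v11h plants were edited (40.4%, Wilson 95% interval 33.6 to 47.7), against 49 of 154 v9h plants (31.8%, 25.0 to 39.5). This difference of 8.62 points did not pass the test (z test for 2 proportions with n = 183 and n = 154, p = 0.102, Benjamini-Hochberg adjusted p = 0.156 over 23 adenine columns). Of the 5 adenines listed at TS60-D, A7, A10 and A11 were called higher in v11h, beside 9 of 23 columns tested over all sites (39.1%). A7 was edited in 29 v11h plants (15.8%, 11.3 to 21.8), against 10 v9h plants (6.49%, 3.57 to 11.5), with an adjusted p of 0.0246 by the z test and 0.0319 by Fisher's exact test. A10 was edited in 24 v11h plants (13.1%, 8.97 to 18.8) and 4 v9h plants (2.60%, 1.01 to 6.49), adjusted p = 0.00567 by the z test and 0.00603 by Fisher's exact test. A11 was edited in 14 v11h plants (7.65%, 4.61 to 12.4) and 1 v9h plant (0.649%, 0.115 to 3.59), adjusted p = 0.011 by the z test and 0.0129 by Fisher's exact test. A15 was the least edited, with 3 v11h plants (1.64%) and 0 of 155 v9h plants, and its adjusted p was 0.157. A count of 0 there allows a share of up to 1.94% (3 counts of the total), with a Wilson limit of 2.42%. Counting any listed adenine, 75 of 183 v11h plants (41.0%, 34.1 to 48.2) and 52 of 154 v9h plants (33.8%, 26.8 to 41.5) were edited at TS60-D.

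These shares differed between the runs of wells. A9 was edited in 42.9% and 38.0% of plants in the v11h runs, against 41.2% and 24.4% in the v9h runs, so the first v9h run lay between the v11h runs. A10 was edited in 14.3% and 12.0% in the v11h runs and in 2.94% and 2.33% in the v9h runs. A7 had 17.6% and 14.1% in the v11h runs, against 11.8% and 2.33% in the v9h runs. A11 had 9.89% and 5.43% in the v11h runs, against 0 and 1.16% in the v9h runs. The runs did not overlap at A7, A10 or A11, but there were only 2 runs per architecture and the separation was not tested. None of the 3 calls held without the first v11h run or without the second v9h run. Without the second v9h run A7 differed by 4.08 points (adjusted p = 0.686, n = 183 and n = 68), while A10 differed by 10.2 points and A11 by 7.65 points, close to the 10.5 and 7.00 points over all plants (adjusted p = 0.218 for both, n = 183 and n = 68). Without the first v11h run the differences were 7.64 points at A7, 9.36 at A10 and 4.79 at A11 (adjusted p = 0.107, 0.0635 and 0.0904, n = 92 and n = 154). The A11 call was also lost without the first v9h run (adjusted p = 0.0639, n = 183 and n = 86), and the A7 call with neighbouring plants of equal calls reduced to 1 (0.0572). Without the first v9h run A9 differed by 16.0 points (z test, n = 183 and n = 86, adjusted p = 0.0265), and without the second v9h run by -0.74 points (n = 183 and n = 68, adjusted p = 0.916). A7 differed by 8.14 points with an adjusted p of 0.168 when only the larger name series of each architecture was kept.

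Read percents at A9 fell into separate levels. Of the v11h plants, 90 were listed at 0 and 19 lay above 0 but below 25%, of which 4 were at 10% or more, at 11.2, 14.6, 17.2 and 18.6%. The 56 heterozygous v11h plants ran from 25.1 to 65.6% with a median of 49.4%, and 54 of them lay between 40 and 60%. The 18 homozygous v11h plants ran from 92.7 to 99.1% with a median of 98.6%. Of the v9h plants, 88 were listed at 0 and 17 lay above 0 but below 25%, with 4 at 12.7, 17.6, 21.7 and 22.4%. The 37 heterozygous v9h plants ran from 28.97 to 64.8% with a median of 48.1%, and the 12 homozygous ones from 97.3 to 98.7%. No plant of either architecture lay between 65.6 and 92.7% at A9. The values nearest to the limit of 25% were 18.6 and 25.1% in v11h and 22.4 and 28.97% in v9h.

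The class mix among edited plants did not differ detectably between architectures. At A9, 18 of 74 edited v11h plants were homozygous (24.3%), against 12 of 49 edited v9h plants (24.5%; Fisher's exact test, p = 1). Of 17 columns tested over all sites 0 passed (0%), and 0 were below an unadjusted 0.05. Homozygous calls away from A9 were few. A7 had 27 heterozygous and 2 homozygous v11h plants and 10 heterozygous v9h plants, while all 24 v11h and 4 v9h plants edited at A10 were heterozygous. A11 had 13 heterozygous and 1 homozygous v11h plant, and the only v9h plant edited at A11 was homozygous at 98.2%. Over all listed adenines, 18 v11h and 13 v9h plants were homozygous at 1 or more adenines of TS60-D.

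Edited v11h plants carried more edited adenines at TS60-D than edited v9h plants. The mean was 1.92 ± 0.98 adenines in 75 v11h plants and 1.23 ± 0.47 in 52 v9h plants (SD), a difference of 0.69. Its permutation p was 1e-05, the smallest that 100000 resamples can give. At least 2 adenines were edited in 44 of 75 v11h plants (58.7%), against 11 of 52 v9h plants (21.2%). The means were 1.98 and 1.86 in the v11h runs of wells and 1.31 and 1.13 in the v9h runs, without overlap.

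A9 was present in nearly every edited combination. A9 alone was edited in 30 of 75 v11h plants and in 38 of 52 v9h plants. A7 with A9 followed, in 16 v11h and 7 v9h plants, and then A9 with A10, in 8 v11h and 3 v9h plants. Combinations of 3 or more adenines were mainly found in v11h: A7, A9 and A10 together in 6 v11h plants and 1 v9h plant, and A7, A9, A10 and A11 together in 6 v11h plants and no v9h plant. In v11h, 28 of 29 plants edited at A7, 24 of 24 edited at A10, 14 of 14 edited at A11 and 3 of 3 edited at A15 were also edited at A9. In v9h the counts were 8 of 10 for A7, 4 of 4 for A10 and 0 of 1 for A11.

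Percents of neighbouring adenines were often equal within a plant. In v11h, A7 and A9 were both edited in 28 plants, and in 20 of them the percents were within 1 point of each other, of which 19 were identical. In 5 more, 1 adenine was homozygous and the other heterozygous, and in 2 both were heterozygous with percents that summed to 95 to 101%. A9 and A10 were within 1 point in 17 of 24 v11h plants, and in the other 7 A9 was homozygous and A10 heterozygous. In v9h, A7 and A9 were within 1 point in 2 of 8 plants, homozygous with heterozygous in 4 and complementary in 2, while A9 and A10 were identical in 4 of 4. Identical percents mean that the same reads could carry both changes, and the table does not give reads by haplotype.

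An adenine other than A9 was the highest in 4 of 75 edited v11h plants and in 5 of 52 edited v9h plants. In v11h, 1 of these plants was edited at A7 alone, at 49.3%, and another had A7 at 50.8% beside A9 at 48.0%. The next had A7 at 54.7% beside A9 at 44.5%, and the last had A15 at 51.1% above A9, A10 and A11, each at 49.3%. In v9h, A7 was edited without A9 at 26.3% in 1 plant and at 51.4% in another, where A9 stood at 0.35%. A pair of v9h plants had A7 above A9, at 51.4 and 47.0% and at 55.1 and 45.5%. The remaining v9h plant had A11 at 98.2% and the other 4 adenines listed at 0.

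At A9, TS60-D was edited in more plants than TS60-B in both architectures and than TS60-A in v9h, as read from the same plants. In plants with values at both sites, A9 was edited at TS60-D in 40.7% of 182 v11h plants, against 26.4% at TS60-B, which carries the mismatch at position 21 only. There, 44 plants were edited at TS60-D only and 18 at TS60-B only (exact McNemar test, adjusted p = 0.00707 over 49 homeolog comparisons). In v9h the A9 shares were 31.8% at TS60-D and 16.9% at TS60-B of 154 plants, with 31 plants edited at D only and 8 at B only (exact McNemar test, adjusted p = 0.00206). Against the perfectly matched TS60-A, v9h plants were edited at A9 in 31.8% at TS60-D and in 16.2% at TS60-A, with 35 plants at D only and 11 at A only (exact McNemar test, adjusted p = 0.00328). In v11h the same shares were 40.7% at TS60-D and 34.6% at TS60-A, with 39 against 28 such plants, and did not pass (exact McNemar test, adjusted p = 0.434). Over all homeolog comparisons of TS60 and TS112, 17 of 49 passed (34.7%). Of those with TS60-D 7 of 19 passed (36.8%), about the share over all comparisons, 5 of 9 against TS60-B and 2 of 10 against TS60-A, each with TS60-D higher. The only tested comparison with TS60-D lower was A15 against TS60-A in v9h, with 0 plants at D and 1 at A.

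Within v9h, gaps at the other adenines were smaller in points than those at A9. Within v11h, the gap to TS60-A was 9.34 points at A10 and 6.04 points at A9. The v11h gap to TS60-B was 13.2 points at A10 and 14.3 points at A9. In v11h, A10 was edited in 24 of 182 plants at TS60-D (13.2%), against 0 at TS60-B, which allows up to 1.65% (3 counts of the total, with a Wilson limit of 2.07%), and 7 at TS60-A (3.85%). Both comparisons passed (exact McNemar test, adjusted p = 1.17e-06 against TS60-B and 0.00742 against TS60-A). A11 was edited in 14 v11h plants at TS60-D (7.69%), 2 at TS60-B (1.10%) and 6 at TS60-A (3.30%), and passed against TS60-B (exact McNemar test, adjusted p = 0.0186) but not against TS60-A (0.214). A7 in v11h had 15.9% at TS60-D, 8.24% at TS60-B and 11.5% at TS60-A, with exact McNemar adjusted p = 0.0465 and 0.488. In v9h, A7 had 6.49% at TS60-D, 1.30% at TS60-B and 3.90% at TS60-A, and neither comparison passed (exact McNemar test, adjusted p = 0.0585 and 0.696).

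Several of these calls needed all plants. Without the first or the second v11h run of wells, the v11h calls at A7, A9 and A11 against TS60-B and at A10 against TS60-A were lost. The A9 difference from TS60-B was then 10.99 points (exact McNemar test, adjusted p = 0.247) and 17.6 points (0.0543), and that of A10 from TS60-A 7.69 points (0.301) and 10.99 points (0.0543). The v9h call at A9 against TS60-A was lost without the second v9h run (11.8 points, exact McNemar test, adjusted p = 0.31). Per run, A9 was edited in 42.9% and 38.0% of v11h plants at TS60-D, 25.3% and 27.5% at TS60-B and 41.8% and 27.5% at TS60-A. In the v9h runs the shares were 41.2% and 24.4% at TS60-D, 23.2% and 11.6% at TS60-B, and 28.99% and 5.81% at TS60-A. TS60-D therefore had the highest A9 share in each of the 4 runs, by 1.10 points over TS60-A in the first v11h run. The calls at A10 in v11h and at A9 in v9h against TS60-B held in every setting tried. The A7 call against TS60-B in v11h was also lost with edits called from 10% of reads (exact McNemar test, adjusted p = 0.129), with neighbouring plants reduced (0.0739) and in the larger name series alone (0.0724).

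Whether the gap between homeologs depended on the architecture was tested by permuting the architecture among plants, for 10 gaps. The gap between TS60-D and TS60-B at A10 was 13.2 points in v11h and 2.60 points in v9h, a difference of 10.6 points (permutation test, adjusted p = 0.0051). Since A10 of TS60-B was edited in no plant of either architecture, this restates the difference in the A10 share of TS60-D between architectures and does not test the gap between homeologs. At A9 the gap between TS60-D and TS60-A was 6.04 points in v11h and 15.6 points in v9h, a difference of -9.54 points that did not pass (permutation test, adjusted p = 0.338). The other 8 did not pass either, with adjusted p of 0.1 or more.

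In plants edited at A9 of both homeologs, the percent of reads was compared within the plant. Of 4 such comparisons 0 passed (0%; sign-flip permutation test), and 1 was below an unadjusted 0.05. That one was TS60-D against TS60-A in v9h, with means of 74.6 ± 25.0% at TS60-D and 56.5 ± 18.3% at TS60-A in 14 plants (SD), higher at TS60-D in 9 of 14 (permutation p = 0.0148, adjusted p = 0.0592). In v11h the means were 64.7 ± 22.99% at TS60-D and 59.7 ± 19.9% at TS60-A in 35 plants (sign-flip permutation test, adjusted p = 0.407). Against TS60-B they were 67.6 ± 24.05% at TS60-D and 60.5 ± 21.5% at TS60-B in 30 v11h plants, and 60.7 ± 21.1% at TS60-D and 53.8 ± 16.9% at TS60-B in 18 v9h plants (sign-flip permutation test, adjusted p = 0.316 for both).

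Editing of TS60-D went together with editing of the other copies. TS60-B was edited at any adenine in 34 of 75 v11h plants edited at TS60-D (45.3%), against 18 of 107 not edited there (16.8%), an odds ratio of 4.10 (95% interval 2.08 to 8.10; Fisher's exact test, adjusted p = 0.000167). In v9h it was 20 of 52 (38.5%) against 8 of 103 (7.77%), an odds ratio of 7.42 (2.98 to 18.5, Fisher's exact test, adjusted p = 4.53e-05). TS60-A was edited in 46.7% of v11h plants edited at TS60-D and 27.1% of those not edited (odds ratio 2.35, 1.26 to 4.39, Fisher's exact test, adjusted p = 0.012). For v9h these shares were 34.6% and 9.71% (odds ratio 4.92, 2.07 to 11.7, Fisher's exact test, adjusted p = 0.000574). This association was general. Each pair of the 6 sites was tested within each architecture, and 22 of these 30 tests passed (73.3%). Of the 10 tests with TS60-D 9 did.

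The second target, delivered on its own crRNA plasmid, showed it too. TS112-A, which matches its crRNA, was edited in 64.0% of v11h plants edited at TS60-D and 34.6% of the others (odds ratio 3.36), and in 54.9% and 22.8% of v9h plants (odds ratio 4.13). TS112-D had odds ratios of 3.45 in v11h and 5.10 in v9h. TS112-B was edited in 6.67% and 6.54% of v11h plants (odds ratio 1.02, 0.311 to 3.35, Fisher's exact test, adjusted p = 1), and in 3 of 51 against 0 of 101 v9h plants (adjusted p = 0.0495). Several of these calls were lost without 1 run of wells. Without the second v11h run the log2 odds ratio was 1.28 with TS60-B, 0.34 with TS60-A and 1.31 with TS112-D in v11h, against 2.04, 1.23 and 1.79 over all plants (Fisher's exact test, adjusted p = 0.119, 0.766 and 0.104 without it). Without the first v9h run it was 0.93 with TS60-A and 0.71 with TS112-A in v9h, against 2.30 and 2.05 over all plants (Fisher's exact test, adjusted p = 0.728 and 0.484 without it). The v9h call with TS112-B was lost without the first v9h run at a nearly equal log2 odds ratio, 3.86 against 3.87 over all plants (Fisher's exact test, adjusted p = 0.112), and without the second v9h run at 2.11 (0.501). Without the second v11h run its adjusted p was 0.0778 by the same test. The v9h plants and the log2 odds ratio of 3.87 were unchanged there, and only the adjustment over all tests moved. With neighbouring plants of equal calls reduced to 1, the v11h calls with TS112-A and TS112-D and the v9h call with TS112-A were lost, at log2 odds ratios of 1.04, 1.05 and 1.27 (Fisher's exact test, adjusted p = 0.0601 for each). The v11h call with TS60-A (0.71, adjusted p = 0.245) and the v9h call with TS112-B (3.37, adjusted p = 0.102, Fisher's exact test) were lost there too. In the larger name series alone these calls with TS60-A in v11h and with TS112-B in v9h were lost as well (Fisher's exact test, adjusted p = 0.107 and 0.0759). The reduction of neighbours also removed plants with no edit at either target. With only neighbouring edited plants reduced, a setting added after seeing the data, all 9 calls with TS60-D held. The v9h calls with TS60-B and with TS112-D held in every setting.

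By combination of homeologs, TS60-D was the only TS60 copy edited in 28 of 182 v11h plants (15.4%) and 25 of 155 v9h plants (16.1%). TS60-A alone was edited in 18 v11h and 5 v9h plants, and TS60-B alone in 7 v11h and 3 v9h plants. All 3 copies were edited in 22 v11h plants (12.1%) and 11 v9h plants (7.10%), and none in 71 v11h plants (39.0%) and 90 v9h plants (58.1%). By class at TS60-D A9, in v11h TS60-A was edited at A9 in 11 of 18 plants homozygous at TS60-D A9 (61.1%), 24 of 56 heterozygous ones (42.9%) and 28 of 108 wild-type ones (25.9%). The v9h counts were 7 of 12 (58.3%), 7 of 37 (18.9%) and 11 of 105 (10.5%). TS60-B was edited at A9 in 11 of 18 (61.1%), 19 of 56 (33.9%) and 18 of 108 (16.7%) of the same v11h classes, and in 4 of 12 (33.3%), 14 of 37 (37.8%) and 8 of 105 (7.62%) of the v9h classes, where the heterozygous share was the highest.

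In the 4 protoplast libraries, whose arms the labels do not give, the share of TS60-D reads with any change in the window read by CRISPResso2 was 5.95, 6.55, 3.10 and 2.84%. It was 4.43, 4.27, 3.29 and 2.93% at TS60-B and 4.93, 5.88, 3.38 and 3.00% at TS60-A, in the same order of libraries. TS60-D was therefore the highest of the copies in 2 libraries and the lowest in the other 2. Between 380500 and 537385 reads lay behind each TS60-D value. These shares are not restricted to A-to-G changes and include sequencing errors, and counting error was small beside the gaps between libraries. Reads with insertions numbered 407, 511, 537 and 372 at TS60-D, but 1 to 5 per library at TS60-B and TS60-A. At TS60-D they were 0.0757, 0.112, 0.132 and 0.0978% of its reads. The other amplicons hold 6 bases after spacer position 20 that the D amplicon lacks. Whether reads of the other copies were counted as insertions at TS60-D was not tested. Reads with deletions numbered 135, 176, 124 and 111 at TS60-D, 66, 56, 48 and 47 at TS60-B and 709 to 986 at TS60-A, so TS60-D lay between the other copies. No test was made.

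In T1 plants TS60-D was readable in 39 of 46 v11h plants and 48 of 48 v9h plants. An edit at 1 or more adenines was present in 14 of 39 v11h plants (35.9%) and 33 of 48 v9h plants (68.8%), of which 7 v11h and 20 v9h plants were homozygous. The lines sampled differed in their parents: 7 of 12 v11h parents and 10 of 12 v9h parents were edited at TS60-D. Edited T1 plants came from 6 of 12 v11h lines and 9 of 12 v9h lines, a difference of -25 points that did not pass (Fisher's exact test, p = 0.4). The wild-type control plant of the T1 table was listed at 0 at all 5 adenines.

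Every TS60-D edit in T1 was present in its T0 parent. Of 331 T1 values whose parent was below 25% at the same adenine, 0 reached 25%, which allows a share of up to 0.906% (3 counts of the total) if values were independent, and 328 were listed at 0. Adenines of a plant and siblings of a line are not independent, so this limit is too low. Of 28 combinations of a line and an adenine edited in the parent, 21 recurred in at least 1 T1 plant. Parents homozygous at A9 gave 17 homozygous and 3 wild-type plants of 20 T1 plants in 5 lines. Parents heterozygous at A9 gave 10 homozygous, 18 heterozygous and 14 wild-type plants of 42 in 11 lines. The wild-type share of 33.3% (21.01 to 48.4) did not differ detectably from the 25% of a selfed heterozygote (exact binomial test, two-sided, p = 0.214), with siblings counted as independent. At least 1 wild-type plant occurred in 8 of these 11 lines (72.7%), against an expected 66.1% (exact test, p = 0.757). At A7, 4 heterozygous parents gave 1 homozygous, 7 heterozygous and 4 wild-type plants, and at A10, 4 heterozygous parents gave 5 homozygous, 2 heterozygous and 7 wild-type plants (exact binomial test of the wild-type share, p = 0.51 and 0.0561). Siblings were counted as independent here too. Of the 7 wild-type plants at A10, 4 came from the first v11h line and 2 from the eighth. Heterozygous T1 values at A9 ran from 40.7 to 67.7%, and homozygous ones from 97.5 to 99.1% apart from a plant at 78.9%.

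In 1 line the T1 calls went against the class of the parent. Of the 4 T1 plants of the first v11h line, 1 had A9 at 98.5% with A10, A11 and A15 listed at 0, and the other 3 were listed at 0 at every adenine. Their T0 parent had A9 at 97.0% and A10, A11 and A15 each at 49.6%. The table notes multi-copy and 1-copy BAR inserts and many null plants for this line. Among heterozygous parents, the second v9h line had A9 at 0 in 4 of 4 T1 plants and at 46.1% in the parent, whose name differs from the T0 table in the last field. This line is noted as 1-copy BAR without Cas12a. The tenth v11h line is also noted as without Cas12a, and the seventh v9h line as without BAR and Cas12a. Both of the latter had T1 plants edited at A9. Without the second v9h line the wild-type share at A9 was 26.3% (exact binomial test, p = 0.852). The eighth v11h line had A7, A9 and A10 at 0 in both readable T1 plants and at 53.8% in the parent.

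Lines with several adenines showed which edits travelled together, and those in this paragraph other than the fifth v9h and eleventh v11h lines were picked after their values were seen. In the fifth v9h line, the T1 plants had A7 and A9 at 57.6 and 41.3%, 53.0 and 45.7%, 54.4 and 44.8%, and 0 and 98.6%. The parent had A7 at 51.4% and A9 at 47.0%. The sums were 98.9, 98.7, 99.2 and 98.6%, and 98.4% in the parent, so in every plant nearly all reads could be accounted for by an edit at A7 or at A9 but not both. In the third v9h line A9 and A10 had identical percents in every plant, at 99.0, 98.7, 99.0 and 63.3% in T1 and 40.9% in the parent. In the ninth v9h line A9 was homozygous in all 4 T1 plants, while A7 stood at 0, 45.2, 52.4 and 98.7%, and the parent had A9 at 98.7% with A7 at 51.8%. In the seventh v11h line A7, A9 and A11 were homozygous in all T1 plants, at 98.5 to 99.0%, and A10 stood at 44.1, 99.0, 0 and 98.5%. Its parent had A7, A9 and A11 at 98.3% and A10 at 52.7%. The eleventh v11h line, edited at A7 but not A9, had A7 at 43.0 and 63.7% in its readable T1 plants and at 49.3% in the parent.

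Across T1 plants readable at all 3 TS60 copies, TS60-D alone was edited in 3 of 37 v11h plants and 8 of 45 v9h plants. TS60-D with 1 or both other copies was edited in 9 v11h and 23 v9h plants, and only other copies in 9 v11h and 2 v9h plants.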

How the data were processed

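The authors demultiplexed amplicon reads and used CRISPResso2 for the deposited percent values, which give how many of the reads aligned to a homeolog carried G in place of an adenine, with reads below an average quality of 30 left out. Cells marked as having no value were treated as missing. The read counts that the authors deposited for the 4 protoplast libraries are per amplicon, with percents of modified reads beside them. The D copy in those libraries was identified from the headers of other deposited tables. Sequences came from the study's target list.

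Shares of plants carry Wilson 95% intervals. Tests were two-sided with a threshold of 0.05, and permutations used 100000 resamples. Tests of shares, classes, homeolog comparisons and co-editing were adjusted by Benjamini-Hochberg over all tested columns or pairs of the tables. The level tests were adjusted over 4 comparisons and the gaps between homeologs over 10. The test of edited adenines per plant and the T1 tests were not adjusted. Every listed adenine of TS60-D was named, and single plants or lines where a T1 call went against the parent's class or where an adenine other than A9 was highest. The site, lists and tests were chosen with earlier results of these data known. The scripts were tested on simulated data. Alternatives were other call limits, Fisher's exact test, runs of wells as a replicate block or left out, neighbouring plants with equal calls reduced to 1, and the larger name series. The last, and neighbouring edited plants reduced to 1, were added after seeing the data. Per-plant depth and gene coordinates were not analysed here. Python 3.11.15, NumPy 2.4.6, SciPy 1.17.1 and pandas 2.3.3 were used.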

Additional observations from a re-analysis of the deposited data

Results flagged for a closer look

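Of 10 gaps between homeologs compared between the architectures, 1 passed, TS60-D minus TS60-B at A10, with a difference of 10.6 points (13.2 points in v11h, 2.60 points in v9h, permutation test, adjusted p = 0.0051). TS60-B was at 0 edited plants there in both architectures, so this is the A10 share difference of TS60-D over again and not a separate dependence on the homeolog, and that share difference lost its call without the first v11h or the second v9h run of wells.

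Among T1 families of 4 readable plants, 1 plant lay far from its siblings in 9 of 23 combinations of line and adenine, where chance would give about 1 in 20. T1 percents lie at 0, near 50% or near 99%, so a single plant of another class is far from its siblings by construction. These plants were the only edited one of the first v11h line (A9 at 98.5%), the only heterozygous one of the third v9h line (A9 and A10 both at 63.3%), the only homozygous one of the fifth v9h line (A9 at 98.6%, A7 at 0), and the only heterozygous one of the tenth v11h line (A9 at 51.7%). Another plant of that line was the only one above 0 at A7 (0.49%), A10 (0.78%) and A11 (1.19%), with A9 at 5.51%.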

How the results depend on the processing

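Of 399 values of single adenines or pairs under an alternative, 349 neither reversed nor crossed the threshold, 37 lost their call, 2 gained one and 11 changed direction. The 349 include differences that fell to 0 and some that could then not be tested. Among the 5 adenines of TS60-D, 3 passed between architectures. With runs of wells as a replicate block 3 passed as well, and leaving out a run gave 0 to 3. Of the homeolog comparisons with TS60-D 7 passed, and 3 to 7 without a run. Of the 10 co-editing tests with TS60-D 9 passed, 9 with the replicate block and 5 to 9 without a run. With neighbouring plants of equal calls reduced to 1, unedited plants among them, 4 passed and 277 plants were left. With only neighbouring edited plants reduced, 9 passed and 334 plants were left. The difference in edited adenines per plant stayed at 0.69 with the replicate block (permutation within runs, p = 1e-05) and ran from 0.61 to 0.79 without a run. The wild-type share in T1 ran from 26.3 to 36.8% without a line. The labels give no plant pairs.

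Directions that changed belonged to differences that did not pass in the main setting. The v11h minus v9h difference at A9 was -0.74 points without the second v9h run. The homozygous share at A9 differed by 0.44 points with edits called from 10%, 0.79 and 1.03 points with class limits of 20 and 80% and of 30 and 65%, 6.28 points without the second v11h run and 5.28 points without the first v9h run. The log2 odds ratio of TS60-D with TS112-B in v11h was -0.32 from 10%, -0.030 with the replicate block, -2.61 without the first v11h run and -0.32 with neighbours reduced. The A9 level of TS60-D minus TS60-B in v9h was -0.98 points without the first v9h run. The causes were not tested. The unknown depth per plant limits values below 25%.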
